A study of Homo sapiens with 9 samples.

Results

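NFE2L2, KEAP1, GCLC, GCLM, GSR, GPX4, TXNRD1, SRXN1, NQO1 and HMOX1 encode the stress-responsive transcription factor NRF2, its inhibitor, and enzymes of the glutathione and thioredoxin systems. These 10 genes were chosen by symbol for their known roles, with earlier results of these data known. All 10 were present in the table of normalized counts, which lists 17518 genes. They were followed in COR-L279, an established human small cell lung cancer line that the labels assign to the SCLC-N subtype and call WT in genotype. The 3 groups, of 3 libraries each, held cells kept for 24 h in the vehicle DMSO, in 0.5 µM JQ1 or in 1.5 µM JQ1, a small molecule that displaces BET bromodomain proteins from acetylated chromatin. The comparison asked how transcripts respond to BET inhibition at each dose. The labels call the libraries biological replicates, so p-values measure the spread between cultures of 1 line.

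NRF2 is a basic leucine zipper factor that KEAP1 holds in the cytoplasm and presents for degradation by a cullin 3 ubiquitin ligase. Oxidants and electrophiles modify cysteines of KEAP1, NRF2 then accumulates, pairs with a small MAF protein and binds antioxidant response elements in its target genes. Its best known targets make glutathione, reduce thioredoxin, repair peroxiredoxins, and dispose of quinones and heme. Control of NRF2 acts largely on the protein, which RNA levels do not show.

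The antioxidant response element has the core TGACNNNGC, often with an A after it. The RefSeq promoter table (GRCh38.p14, 250 bases before to 50 after a start) held 8 of the 10 genes by symbol, all but GSR and HMOX1, with 13 starts in all. On either strand the core with that A lay in 3 of these 13 windows (23.1%), and in 3.18% of all 35116 windows of this length. The shorter TGACNNNGC, which contains every match of the longer one, lay in 4 of the 13 (30.8%), against 13.3% of all windows. Both belong to 3 of the 8 genes, and a gene with several starts has more windows in which a match can fall. Those 3 matches to the longer core are shown in the gene's direction, with the match in capitals, because genes that carry it in this window moved in opposite directions after JQ1: GCLM and KEAP1 fell and TXNRD1 rose.
GCLM, chr1:93909431-93909490, minus strand, first base of the match at -35 from the start: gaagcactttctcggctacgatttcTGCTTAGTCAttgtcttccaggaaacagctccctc
KEAP1, chr19:10502772-10502828, minus strand, 1 of 2 starts, match at -32: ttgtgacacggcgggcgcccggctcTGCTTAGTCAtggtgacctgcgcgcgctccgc
TXNRD1, chr12:104286904-104286963, plus strand, 1 of 2 starts, match at -103: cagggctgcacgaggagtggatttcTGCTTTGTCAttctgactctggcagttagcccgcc
In each the longer core lies on the strand opposite to the gene, where it reads TGACTAAGCA in GCLM and KEAP1 and TGACAAAGCA in TXNRD1. The KEAP1 stretch also holds a match to the shorter core, TGACACGGC, on the gene's own strand at -54, left in lower case. A match is a run of letters and does not show binding, and elements outside the window were not searched.

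After JQ1 the 10 genes split. GCLC, GPX4 and TXNRD1 rose at both doses, and KEAP1, GCLM, SRXN1, NQO1 and HMOX1 fell at both. GSR fell at 0.5 µM and did not pass at 1.5 µM, with no difference called between the doses, and NFE2L2 itself did not pass the test at either dose. Among the 10, HMOX1 changed the most, and fell by 48.0% at 1.5 µM, and GCLC had the largest rise, 1.54-fold. At 0.5 µM, 3 rose and 6 fell of the 10 (limma, Benjamini-Hochberg adjusted p under 0.05). Since 70% of all 17514 genes tested passed at this dose, with 35.3% higher and 34.7% lower, 9 calls among 10 genes is not far from the background. At 1.5 µM, 3 rose and 5 fell, beside 73.1% of all genes called, 36.9% higher and 36.2% lower. The median log2 fold change of the 10 was -0.31 at 0.5 µM and -0.40 at 1.5 µM, where all genes tested had -0.010 and -0.0030. The median size of the change was 0.51 and 0.63 for the 10 genes and 0.38 and 0.43 for all genes.

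**Figure D1:**
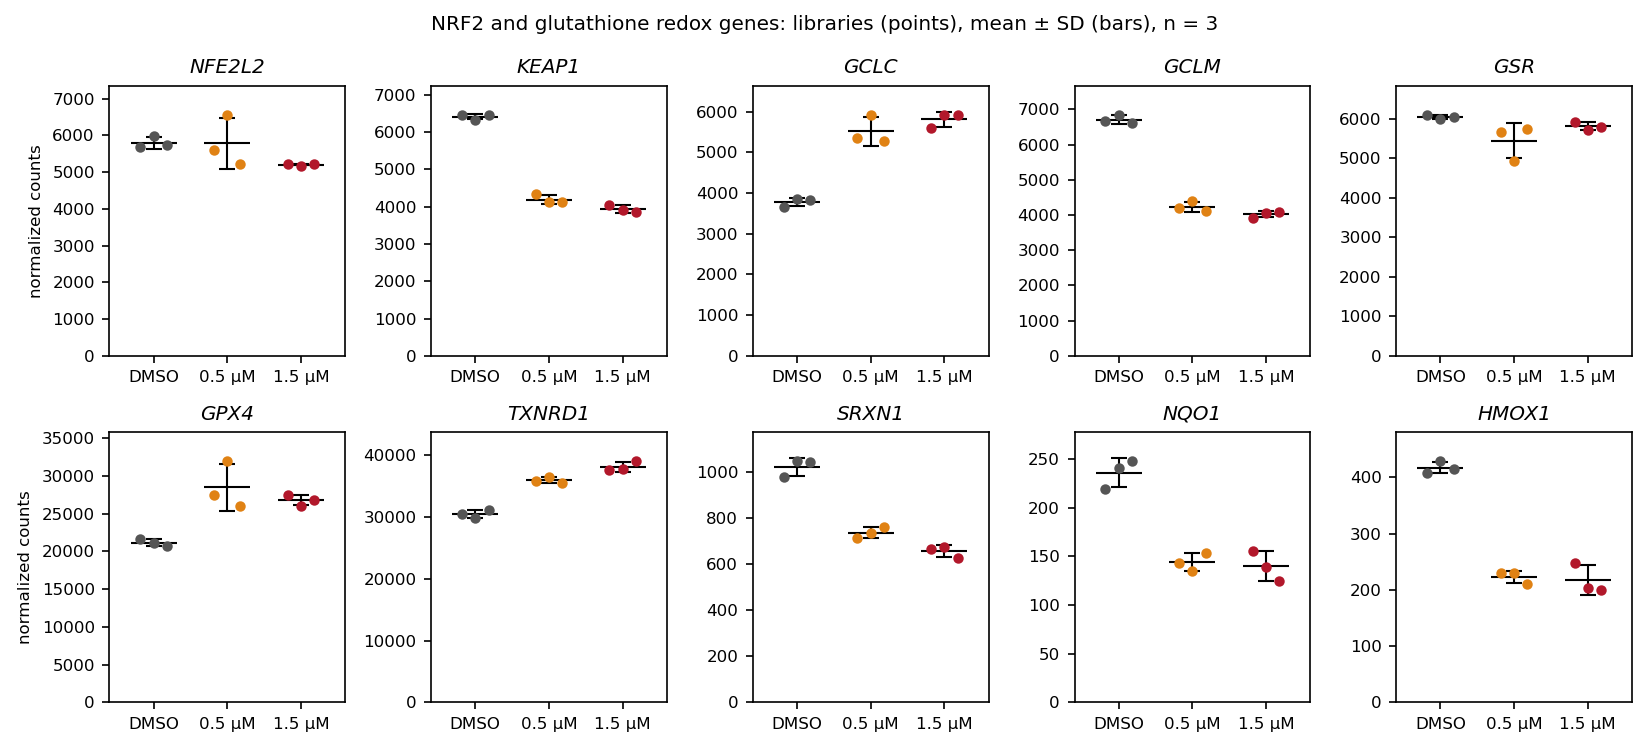
Normalized counts (vertical axes, from 0, scaled per gene) of the 10 genes in each of the 9 libraries, with points for libraries and bars for mean ± SD (n = 3). Points of both JQ1 groups lie above DMSO for GCLC, GPX4 and TXNRD1 and below it for KEAP1, GCLM, SRXN1, NQO1 and HMOX1, while those of NFE2L2 overlap DMSO at 0.5 µM.

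HEXIM1, which BET inhibitors are known to raise, stood at 1101 to 1142 normalized counts in DMSO, 5423 to 5570 at 0.5 µM and 6819 to 7101 at 1.5 µM. NEUROD1, which defines the SCLC-N subtype, had 264 to 271 FPKM (fragments scaled to transcript length and library depth) in DMSO. In DMSO, YAP1 had at most 0.04 FPKM and POU2F3 at most 0.10, while the neuroendocrine markers CHGA, INSM1 and SYP had at least 512, 355 and 86.7. In bulk RNA, fewer cells of a kind and less RNA per cell cannot be told apart. Libraries held 60721187 to 88482001 reads in genes. Replicate 3 at 0.5 µM and replicates 1 and 2 at 1.5 µM stood apart by 1476 to 2071 normalized counts of the imprinted RNA H19, where the remaining JQ1 libraries had 1.04 to 8.22 and DMSO 63.8 to 82.8. The same 3 libraries had 117 to 178 normalized counts of YAP1, a marker of another subtype, against 7.18 to 12.9 in the remaining 6, and the part of this in the results was not tested. Leaving these 3 libraries out keeps 2 libraries at 0.5 µM and 1 at 1.5 µM. GCLC, GPX4, TXNRD1, KEAP1, GCLM, SRXN1, NQO1 and HMOX1 then kept their direction against DMSO at both doses. Library 0.5 µM replicate 2 also differed from its group, and values that move with it are named where they occur.

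NFE2L2 (ENSG00000116044.11) encodes NRF2. Its normalized counts were 5675, 5973 and 5734 in DMSO, 5592, 6555 and 5212 at 0.5 µM, and 5226, 5176 and 5214 at 1.5 µM, given from replicate 1 to 3 as for all genes that follow. The 0.5 µM libraries lay on both sides of DMSO, with replicate 2 the highest of all 9 libraries, while the 1.5 µM libraries all lay below DMSO. The log2 fold change was -0.0082 ± 0.068 (SE, n = 3, limma adjusted p = 0.92) at 0.5 µM and -0.15 ± 0.068 (adjusted p = 0.0633) at 1.5 µM. Without 0.5 µM replicate 2, which lay 0.28 above the mean of its 2 partners on the log2 scale, NFE2L2 passed at both doses (-0.10, adjusted p = 0.0184, and -0.15, adjusted p = 0.000566, by limma). At 1.5 µM the count tools fell on either side of the threshold for NFE2L2: edgeR gave -0.16 (adjusted p = 0.0594) and DESeq2 -0.15 (adjusted p = 0.0452). Of all 22 alternatives, 8 brought it past the threshold (adjusted p from 9.9e-05 to 0.19). NFE2L2 overlaps other annotated genes, among them AGPS on the opposite strand with a mean of 5835 normalized counts in DMSO, and reads of the overlap cannot be assigned with certainty.

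KEAP1 (ENSG00000079999.9), the inhibitor of NRF2, fell. It had 6458, 6329 and 6443 normalized counts in DMSO, 4330.5, 4123 and 4115 at 0.5 µM, and 4049, 3908 and 3851 at 1.5 µM. The 3 groups did not overlap, and replicates of a group lay close together. KEAP1 fell by 0.61 ± 0.034 on the log2 scale at 0.5 µM (SE, n = 3, limma adjusted p = 7.6e-08) and by 0.70 ± 0.034 at 1.5 µM (adjusted p = 1.76e-08). In percent it fell by 34.7% and fell by 38.6%. Transcripts of the factor and of its inhibitor thus came closer in level per length. In FPKM the ratio of NFE2L2 to KEAP1 within a library was 0.600, 0.624 and 0.558 in DMSO, 0.950, 1.05 and 0.818 at 0.5 µM, and 0.881, 0.905 and 1.02 at 1.5 µM. Each JQ1 library lay above every DMSO library (two-sided exact permutation p = 0.1 at each dose, n = 3 against 3, the smallest that 3 against 3 allows). The pair was chosen for this ratio after its values were seen.

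Glutathione is made in 2 steps, and the first and limiting one is the work of glutamate-cysteine ligase, whose catalytic subunit is GCLC and whose modifier subunit is GCLM. The 2 subunit genes went apart. GCLC (ENSG00000001084.6) had 3659, 3842 and 3822 normalized counts in DMSO, 5344, 5916 and 5274 at 0.5 µM, and 5601, 5914 and 5908 at 1.5 µM. Every JQ1 library was above every DMSO library, and the rise was 0.54 ± 0.047 (SE, n = 3, limma adjusted p = 2.3e-06) and 0.62 ± 0.047 (adjusted p = 6.12e-07) on the log2 scale. Without 0.5 µM replicate 2, which lay 0.16 above the mean of its partners, the rise of GCLC at 0.5 µM was 0.49. GCLM (ENSG00000023909.5) had 6666, 6841 and 6616 normalized counts in DMSO, 4196, 4395 and 4119 at 0.5 µM, and 3921, 4047 and 4088 at 1.5 µM. All JQ1 libraries lay below DMSO, and GCLM fell by 0.66 ± 0.035 (adjusted p = 5.42e-08) and 0.74 ± 0.035 (adjusted p = 1.51e-08).

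The order of the subunit transcripts was therefore reversed per length. In FPKM, GCLC stood at 23.1 ± 1.94 and GCLM at 39.4 ± 2.03 in DMSO (SD, n = 3), at 32.8 ± 1.38 and 22.1 ± 0.188 at 0.5 µM, and at 31.8 ± 2.23 and 22.3 ± 0.598 at 1.5 µM. Their ratio within a library was 0.546, 0.609 and 0.605 in DMSO, 1.44, 1.57 and 1.45 at 0.5 µM, and 1.33, 1.41 and 1.53 at 1.5 µM. No JQ1 library overlapped DMSO (two-sided exact permutation p = 0.1 at each dose, n = 3 against 3), and the doses overlapped each other (exact permutation p = 0.4). This pair too was chosen after its values were seen.

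**Figure D2:**
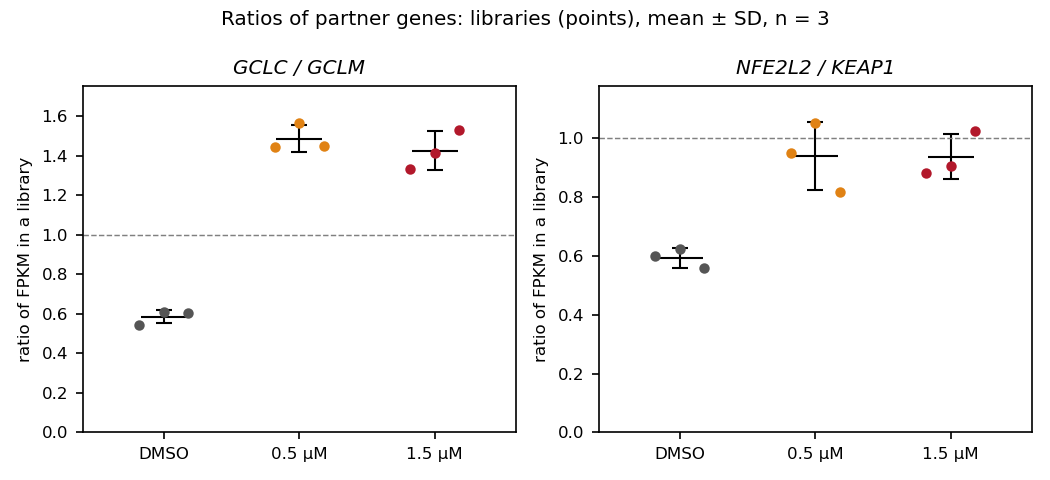
Ratio of FPKM values within each library (vertical axes, from 0) for GCLC over GCLM and NFE2L2 over KEAP1 in the 3 groups, with points for libraries, bars for mean ± SD (n = 3) and a dashed line at 1. GCLC over GCLM lies below 1 in each DMSO library and above 1 in each JQ1 library, and NFE2L2 over KEAP1 goes from a mean of 0.594 to 0.940 and 0.936.

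GSR (ENSG00000104687.8), glutathione reductase, restores reduced glutathione with NADPH. It had 6095, 5985 and 6032 normalized counts in DMSO, 5674, 4930.3 and 5733 at 0.5 µM, and 5911, 5719 and 5793 at 1.5 µM. All JQ1 libraries were lower than all DMSO libraries, by little except in 0.5 µM replicate 2, which lay 0.21 below the mean of its partners on the log2 scale. GSR fell by 0.15 ± 0.052 at 0.5 µM (SE, n = 3, limma adjusted p = 0.0231) and had -0.056 ± 0.052 at 1.5 µM (adjusted p = 0.35). The call at 0.5 µM was lost without DMSO replicate 1 or 3 (limma adjusted p = 0.0642 and 0.0538) and in a fit to the 6 libraries compared (adjusted p = 0.0527). The size of the change rested on 0.5 µM replicate 2: without it GSR had -0.082 (limma adjusted p = 0.013), and with library weights -0.086. Over its 22 alternatives the adjusted p ran from 0.00485 to 0.0642.

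GPX4 (ENSG00000167468.12) is a selenoprotein that spends glutathione to reduce lipid peroxides in membranes, the step that guards against ferroptosis. It had 21577, 21155 and 20716 normalized counts in DMSO, 27484, 31901 and 26009 at 0.5 µM, and 27437, 26046 and 26806 at 1.5 µM. The JQ1 libraries were all above DMSO, and 0.5 µM replicate 2 was the highest. GPX4 rose by 0.42 ± 0.062 (SE, n = 3, limma adjusted p = 0.000131) and 0.34 ± 0.062 (adjusted p = 0.000562) on the log2 scale, or 1.34-fold and 1.27-fold. Without 0.5 µM replicate 2 the rise at 0.5 µM was the smallest of its alternatives, 0.34.

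TXNRD1 (ENSG00000198431.11), cytosolic thioredoxin reductase and likewise a selenoprotein, rose the least. It had 30372, 29874 and 31119.6 normalized counts in DMSO, 35735, 36418 and 35457 at 0.5 µM, and 37498, 37765.5 and 38941 at 1.5 µM. The 3 groups did not overlap, with 1.5 µM highest. The rises were 0.24 ± 0.028 (SE, n = 3, limma adjusted p = 2.87e-05) and 0.32 ± 0.028 (adjusted p = 2.06e-06) on the log2 scale. A ribosomal protein pseudogene on the same strand, RPL18AP3, overlaps TXNRD1 and had means of 1784, 1191 and 1346 normalized counts in the 3 groups.

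SRXN1 (ENSG00000271303.1), sulfiredoxin, repairs overoxidized peroxiredoxins. It had 978, 1047 and 1045 normalized counts in DMSO, 715, 736 and 764 at 0.5 µM, and 667, 676 and 628 at 1.5 µM. The groups stepped down without overlap. SRXN1 fell by 0.47 ± 0.054 (SE, n = 3, limma adjusted p = 1.95e-05) and 0.64 ± 0.054 (adjusted p = 1.42e-06) on the log2 scale.

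NQO1 (ENSG00000181019.8), a quinone reductase widely used as a readout of NRF2 activity, was low in these cells and fell further. It had 219, 241 and 247 normalized counts in DMSO, 143, 135 and 153 at 0.5 µM, and 156, 139 and 125 at 1.5 µM. Each JQ1 library was below each DMSO library, and the doses overlapped. NQO1 fell by 0.71 ± 0.11 (SE, n = 3, limma adjusted p = 0.000186) and 0.75 ± 0.11 (adjusted p = 0.000104) on the log2 scale.

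HMOX1 (ENSG00000100292.12), heme oxygenase 1, breaks heme down to biliverdin, iron and carbon monoxide. It had 409, 428 and 416 normalized counts in DMSO, 229, 230.1 and 211 at 0.5 µM, and 248, 204 and 200.04 at 1.5 µM. The groups of JQ1 libraries overlapped each other and lay well below DMSO. HMOX1 fell by 0.90 ± 0.095 (SE, n = 3, limma adjusted p = 1.02e-05) and 0.94 ± 0.095 (adjusted p = 5.5e-06) on the log2 scale. In percent it fell by 46.4% and fell by 48.0%.

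**Figure D3:**
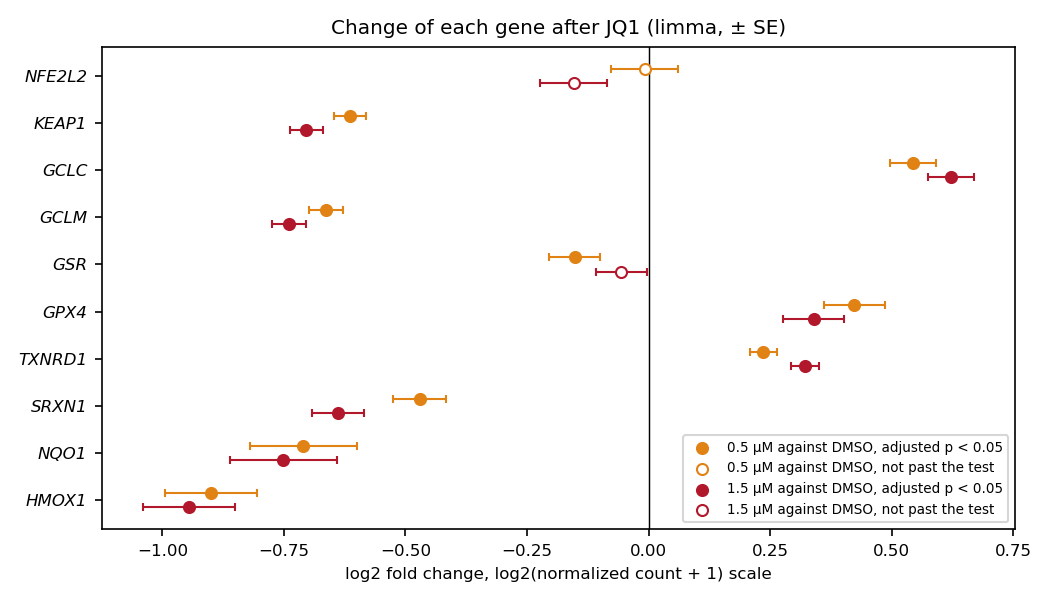
Log2 fold change (horizontal axis) of each of the 10 genes at 0.5 µM and 1.5 µM JQ1 against DMSO, with bars for ± SE. Filled points passed the test and open points did not: GCLC, GPX4 and TXNRD1 lie to the right of 0 at both doses, with GCLC at 0.62 at 1.5 µM, and HMOX1 lies farthest to the left, at -0.94.

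The groups of the 10 genes did not overlap DMSO in 9 cases at 0.5 µM and in 10 at 1.5 µM, where 72.6% and 81.7% of all genes tested had no overlap. At 0.5 µM the exception was NFE2L2. Comparisons of both doses with DMSO share their 3 control libraries, so the like directions at the 2 doses are not independent of each other.

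Between the doses, none of the 10 genes passed. For 1.5 µM against 0.5 µM JQ1, 0 of the 10 genes were called higher and 0 lower (limma adjusted p under 0.05), beside 12.7% of all genes tested, 4.66% higher and 8.09% lower. At an unadjusted p under 0.05 the counts were 1 higher, TXNRD1, and 2 lower, KEAP1 and SRXN1. With edgeR 0 were called (TXNRD1 at adjusted p = 0.0859), and with DESeq2 1, TXNRD1 (log2 fold change 0.086, adjusted p = 0.0214). The groups of the 2 doses did not overlap in 4 of the 10, KEAP1, GCLM, TXNRD1 and SRXN1, beside 33.7% of all genes.

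The intervals of the dose differences limit how far apart the doses can be. SRXN1 had the largest difference, -0.17 on the log2 scale (95% confidence interval -0.29 to -0.048, limma adjusted p = 0.069). TXNRD1 had 0.086 (0.022 to 0.15, adjusted p = 0.078) and KEAP1 -0.090 (-0.16 to -0.015, adjusted p = 0.111). NFE2L2 had -0.15 (-0.30 to 0.0060) and GCLM -0.076 (-0.15 to 0.0012). GCLC had 0.077 (-0.028 to 0.18), GSR 0.096 (-0.020 to 0.21) and GPX4 -0.084 (-0.22 to 0.055). The interval was widest for NQO1, at -0.042 (-0.29 to 0.20), and next HMOX1, at -0.044 (-0.25 to 0.17), the 2 genes with the fewest reads. On FPKM values the sign of this difference turned for GCLC (-0.044) and GCLM (0.016). Leaving out 0.5 µM replicate 2 brought KEAP1, GCLC and TXNRD1 past the threshold (limma adjusted p = 0.0497, 0.0212 and 0.0195) and turned GPX4 to 0.0011.

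Levels of the 10 genes spanned 2 orders of magnitude per length in DMSO. GPX4 was highest at 442 ± 8.60 FPKM (SD, n = 3), place 199 among the 17518 genes, followed by TXNRD1 at 155 ± 4.79 and KEAP1 at 60.55 ± 2.27. GCLM (39.4 ± 2.03), GSR (36.7 ± 0.031), NFE2L2 (35.9 ± 0.774) and GCLC (23.1 ± 1.94) held the middle. SRXN1 (5.88 ± 0.208), HMOX1 (3.72 ± 0.093) and NQO1 (3.70 ± 0.167) closed the order, NQO1 at place 11319. In DMSO neighbours in this order had no overlapping libraries except HMOX1 and NQO1. At 0.5 µM, KEAP1 (36.4 ± 0.855 FPKM), NFE2L2 (34.2 ± 3.53), GCLC (32.8 ± 1.38) and GSR (32.0 ± 2.27) each overlapped the next, as did NQO1 and HMOX1. At 1.5 µM the same 4 genes stood between 30.3 and 33.3 FPKM in the order GSR, KEAP1, GCLC, NFE2L2, each overlapping the next, and KEAP1 had dropped from place 1781 to place 3258 in the table.

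For each of the 10 genes, 1 tested gene was sought whose 9 log2 values, taken as differences from its own DMSO mean, lay closest, among 13242 genes with a mean of at least 100 normalized counts. The measure is a Euclidean distance over 9 libraries. Those given JQ1 share the drug, so genes that respond alike to it lie close. KEAP1 ran closest to MRPS2, a mitochondrial ribosomal protein (distance 0.083), GCLM to TSR1, a ribosome assembly factor (0.060), and GCLC to ZCCHC11, a terminal uridylyltransferase (0.056). TXNRD1 was nearest to EIF4G2, a translation initiation factor (0.069), GSR to the nucleoporin gene NUP93 (0.078), SRXN1 to the septin gene SEPT8 (0.085), GPX4 to ALS2CR11 (0.0904) and NFE2L2 to APOPT1 (0.093). The closest matches of NQO1 and HMOX1 were PDLIM4 (0.168) and BMP1, a procollagen protease (0.203). Within the set KEAP1 and GCLM lay closest to each other (0.183), whereas GCLC and the nearest of the other 9, GPX4, were 0.559 apart. TSR1, for example, fell by 0.66 and 0.74 on the log2 scale, as did GCLM.

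Around the 10 genes, 9 lists of 141 genes in all covered NRF2 regulators, glutathione, thioredoxin, NADPH, detoxification, heme and iron, and ferroptosis, and 131 of them were in the normalized count table and tested. Of these 131, which include the 10, the calls at 0.5 µM were 58 higher and 48 lower and those at 1.5 µM 60 higher and 51 lower, with medians of 0.048 and 0.056 on the log2 scale. Among all genes tested, 35.3% were called higher and 34.7% lower at 0.5 µM, and 36.9% and 36.2% at 1.5 µM, and the counts of each list below stand beside these shares. The genes outside the table had at most 0.26 FPKM in any library, among them the NRF2 targets AKR1B10 (at most 0.02) and ALDH3A1.

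Among 15 NRF2 regulators, each dose called 4 higher and 6 lower. The 3 small MAF genes, whose proteins pair with NRF2 on DNA, all fell at both doses. MAFK went from 1639, 1524 and 1482 normalized counts in DMSO to 958, 835 and 797 at 0.5 µM and 781, 706 and 838 at 1.5 µM (log2 fold change -0.85 ± 0.082 and -0.999 ± 0.082, SE, limma adjusted p = 5.64e-06 and 1.17e-06). MAFF had 196 to 206 normalized counts in DMSO, 89.2 to 134 at 0.5 µM and 94.4 to 136 at 1.5 µM, and MAFG 4252 to 4335, 2721 to 3095 and 2692 to 2767. The rule that named these 3 genes asked for no overlap with DMSO at 1.5 µM, so that part was fixed by the choice. At 0.5 µM no library of the 3 reached the DMSO range, where 72.6% of all genes tested had no overlap.

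Both chains of the cystine importer fell. Of 14 genes of glutathione synthesis and cystine uptake, 5 were higher and 7 lower at the low dose, and 5 and 8 at the high dose (medians -0.22 and -0.24). SLC7A11, the cystine-glutamate exchanger xCT that supplies cysteine for glutathione, had 2132, 2253 and 2483 normalized counts in DMSO, 391, 403 and 421 at 0.5 µM, and 343, 323 and 380 at 1.5 µM. It fell by 2.49 ± 0.076 and 2.71 ± 0.076 on the log2 scale (SE, n = 3, limma adjusted p = 2.12e-09 and 5.83e-10), where HMOX1, the most changed of the 10 genes, fell by 0.90 and 0.94. SLC3A2, the heavy chain that carries xCT to the membrane, fell from 10105 ± 123 normalized counts (SD) to 4722 ± 139 and 4567 ± 147. CHAC1, which degrades glutathione, fell from 218 ± 19.9 to 78.1 ± 10.9 and 53.9 ± 9.80 normalized counts.

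Of 13 tested genes of glutathione reduction, peroxidases and glutaredoxins, 0.5 µM called 6 higher and 3 lower, and 1.5 µM called 5 and 4. GPX2, a glutathione peroxidase of epithelia, went against its relative GPX4 and fell from 613 ± 43.8 normalized counts to 200.5 ± 26.9 and 157 ± 11.5 (SD, n = 3). GPX7, a peroxidase of the endoplasmic reticulum, fell from 1842 ± 57.4 to 1085 ± 79.3 and 915 ± 59.2. GLRX2, a mitochondrial glutaredoxin, rose from 386 ± 11.9 to 511 ± 36.9 and 592 ± 29.3 normalized counts. Among 16 tested glutathione transferases, which conjugate glutathione to electrophiles, each dose called 9 higher and 6 lower (medians 0.35 and 0.35). GSTO1 fell from 5363 ± 59.1 to 2398 ± 157 and 2126 ± 44.1 normalized counts, while its neighbour in the family, GSTO2, rose from 19.8 ± 2.71 to 45.4 ± 4.96 and 47.7 ± 5.79. GSTM1, whose reads can be shared with near-identical GSTM genes, had 546 ± 40.3, 277 ± 2.52 and 237 ± 7.87 normalized counts.

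In the thioredoxin and peroxiredoxin list of 17 genes, 0.5 µM called 8 higher and 5 lower, and 1.5 µM called 9 and 6. TXNIP, an inhibitor of thioredoxin, rose from 1587 ± 16.9 normalized counts to 4397 ± 65.7 and 5490.5 ± 164 (SD, n = 3). SESN3, a sestrin, rose from 4959 ± 264 to 16054.5 ± 2403 and 20189.5 ± 223. TXNRD2, the mitochondrial thioredoxin reductase, went against TXNRD1: it fell from 1170 ± 51.97 to 557 ± 40.7 and 399 ± 18.1 normalized counts, and by 0.48 ± 0.068 on the log2 scale between the doses (SE, limma adjusted p = 0.00211). Leaving out the 3 libraries with H19 takes away the replication at 1.5 µM, and this dose difference of TXNRD2 was then -0.53.

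NADPH is the reductant of GSR, TXNRD1 and NQO1. A list of 13 genes covered its supply and connected steps, and not all of them make NADPH. Of these, 10 were called higher and 3 lower at the low dose and 9 and 3 at the high dose (medians 0.22 and 0.27). All genes tested had 35.3% and 34.7% at the low dose, and 36.9% and 36.2% at the high dose. PGD of the pentose phosphate pathway rose from 12493 ± 95.6 normalized counts to 20465.5 ± 832 and 21519.9 ± 126 (SD, n = 3), and IDH1 from 8817 ± 272 to 14308 ± 825 and 15055.5 ± 28.2. ME1, cytosolic malic enzyme, fell from 2095 ± 19.4 to 974 ± 50.95 and 843 ± 11.9. Of 18 tested genes that handle quinones, carbonyls and conjugates, 0.5 µM called 4 higher and 10 lower, and 1.5 µM called 5 and 10, NQO1 among those lower, beside 34.7% and 36.2% of all genes called lower at these doses. OSGIN1, an oxidative stress induced growth inhibitor, fell from 134 ± 13.0 to 39.8 ± 4.06 and 36.4 ± 6.08 normalized counts, with a log2 fold change at 0.5 µM of -1.73 on normalized counts and -1.14 on FPKM values. UGDH, which makes UDP-glucuronate, fell from 8062 ± 207 to 3327 ± 297 and 3246 ± 31.9, and the carbonyl reductase CBR3 from 60.2 ± 9.57 to 34.8 ± 1.91 and 22.9 ± 4.15.

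While HMOX1 fell, the iron storage genes of its list rose. Of 13 heme and iron genes, 0.5 µM called 6 higher and 5 lower, and 1.5 µM called 7 and 5. The ferritin heavy chain gene FTH1 rose from 38174 ± 1117 normalized counts to 60719.5 ± 933 and 64447 ± 788 (SD, n = 3), and the light chain gene FTL from 33475 ± 903 to 50522 ± 5564 and 50788 ± 1492; both have many processed pseudogenes that can take reads. SLC40A1, the iron exporter ferroportin, had 432 to 486 normalized counts in DMSO, and was highest in the 3 libraries with H19. It had 933, 1150 and 963 normalized counts in these and 547, 690 and 670 in the rest of the JQ1 libraries. SLC40A1 rose by 0.60 ± 0.21 and 0.95 ± 0.21 on the log2 scale (SE, limma adjusted p = 0.0262 and 0.00184). Without the 3 libraries, which leaves 1 library at 1.5 µM, it rose by 0.40 and 0.52. At 0.5 µM the call was lost without 0.5 µM replicate 3 alone (0.40, adjusted p = 0.0969) and without DMSO replicate 1, 2 or 3 (adjusted p = 0.0516, 0.0505 and 0.0805).

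Of 12 tested genes of superoxide, catalase and ferroptosis, 0.5 µM called 6 higher and 3 lower, and 1.5 µM called 7 and 3. AIFM2, also known as FSP1, which limits lipid peroxidation in parallel to GPX4, fell from 798 ± 60.9 normalized counts to 223 ± 27.2 and 203 ± 21.3 (SD, n = 3) while GPX4 rose. NOX4, an NADPH oxidase, fell from 161 ± 25.7 to 36.6 ± 1.46 and 31.8 ± 11.6 normalized counts. SAT1, a polyamine acetyltransferase, rose from 137 ± 2.79 to 308 ± 34.4 and 383 ± 27.3.

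**Figure D4:**
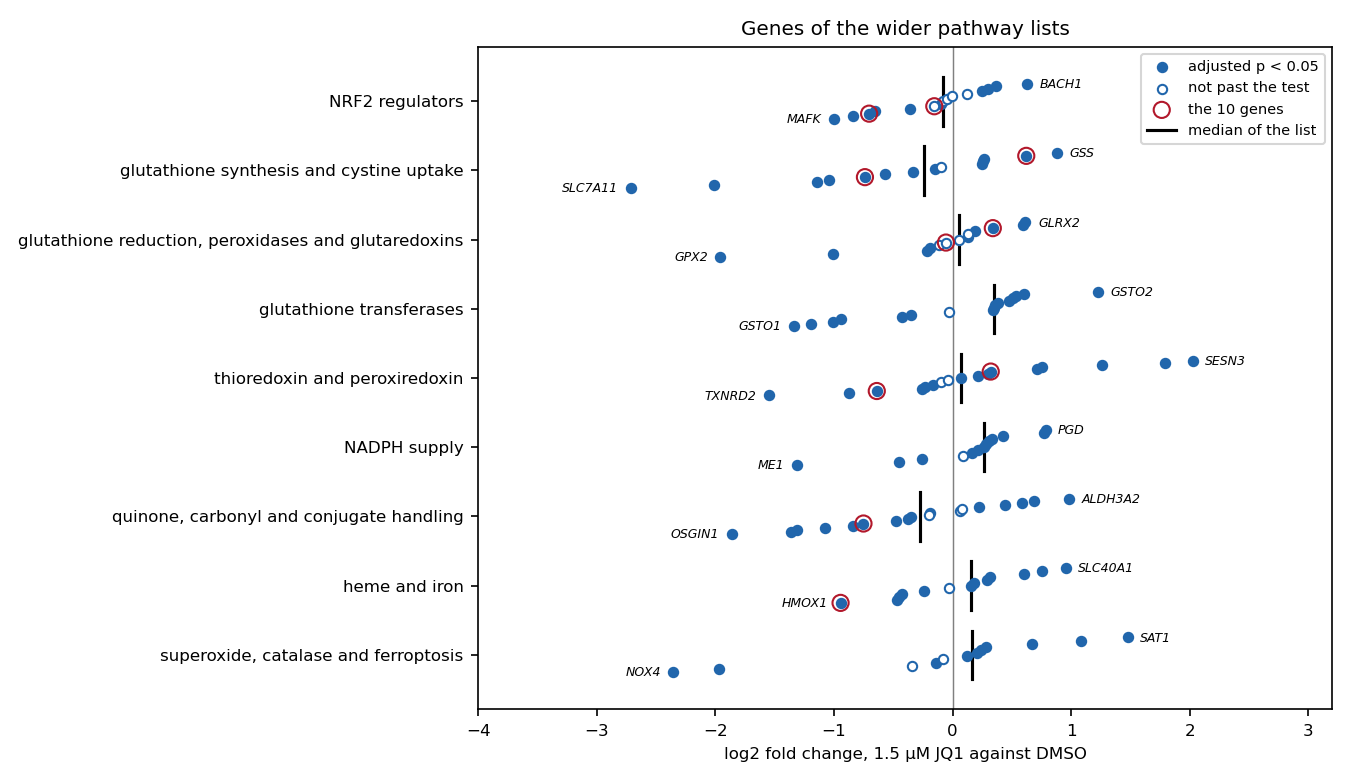
Log2 fold change at 1.5 µM JQ1 against DMSO (horizontal axis) of the 131 tested genes of the 9 lists (rows), filled where the test was passed, with the 10 genes ringed, the median of each list as a bar and the genes at both ends named. Within each list genes lie on both sides of 0, with SLC7A11 farthest to the left at -2.71 and SESN3 farthest to the right at 2.03.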

How the data were processed

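Total RNA was sequenced from stranded TruSeq libraries, per the labels' protocols. Per the submitters' processing notes, cutadapt, STAR and RSEM were used with hg19; their versions, the annotation release and the strand setting: not given in the sources used here. From the values, the deposited signal is gene counts divided by 1 size factor per library: 100% came out as whole reads within 0.001. The authors also deposited FPKM values, rounded to 2 decimals. limma 3.58.1 (R 4.3.3) was fitted to log2(normalized count + 1) with trend over all 9 libraries for the 17514 genes with at least 10 normalized counts in at least 3 libraries. Tests were two-sided. No spike-in is named, so a fold change is read against most other genes. The fit was tested on simulated data with far fewer changed genes than were called here. A change of this breadth was not simulated. GENCODE 29 gave overlapping genes by name. The 10 genes, lists and alternatives were chosen with earlier results of these data known. Beside the 10, up to 3 genes per list are named: those with the largest changes that passed at 1.5 µM, with a mean of at least 20 and no overlap between groups, and for each of the 10 the closest gene over 9 libraries. Alternatives, edgeR 4.0.16 and DESeq2 1.42.0 on recovered reads among them, are described under the processing heading of the closing section.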

Additional observations from a re-analysis of the deposited data

How the results depend on the processing

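Each result was recomputed under 22 alternatives: pseudocounts of 0.1 and 5, no filter or a minimum of 50, FPKM values (pseudocount 0.1, minimum 0.5 in 3 libraries), scaling by TMM or upper quartile, edgeR, DESeq2, library weights, the 6 libraries compared, a replicate block, each library left out, and the 3 libraries with H19 left out. The last of these keeps 1 library at 1.5 µM, so its calls at that dose and between the doses carry little weight. GCLC, GPX4, TXNRD1, KEAP1, GCLM, SRXN1, NQO1 and HMOX1 kept direction and call against DMSO at both doses in all 22. Those called higher were 3 at each dose throughout, those called lower 5 to 7. The sign of NFE2L2 at 0.5 µM turned without DMSO replicate 2 (0.014), without 0.5 µM replicate 1 (0.013) or 3 (0.064) and without the 3 libraries with H19 (0.064); with 1 library left out it ran from -0.10 to 0.064. Between the doses the sign turned for GCLC (-0.044) and GCLM (0.016) on FPKM values, for GPX4 without 0.5 µM replicate 2 (0.0011), for NQO1 without 0.5 µM replicate 3 (0.0048) or 1.5 µM replicate 3 (0.036), and for HMOX1 without 1.5 µM replicate 3 (0.013); with 1 library left out these 3 ran from -0.15, -0.12 and -0.14 up to the values given. The number of the 10 called between the doses was 1 higher by DESeq2, 2 higher and 2 lower with library weights, and 0 to 2 higher and 0 to 1 lower with 1 library left out. Of the 131 list genes, 6 were higher and 8 lower between the doses, beside 4.66% and 8.09% of all genes tested. The counts were 2 higher on FPKM values, 20 higher and 22 lower with library weights, and 2 higher and 3 lower in the 6 libraries. With 1 library left out they were 2 to 17 higher and 4 to 11 lower. The cause was not tested. Pairing by replicate number was not seen: 2 of 9 same-numbered pairs had correlated deviations over 0.1 (range -0.385 to 0.131). Of the pairs with different numbers, 4 of 18 did (range -0.145 to 0.253). This does not exclude a pairing. With the replicate block, 3 of the 10 were higher and 6 lower at each dose, NFE2L2 passing at 1.5 µM (adjusted p = 0.0445). Upper-quartile scaling moved the median of all genes to -0.064 at 0.5 µM. NQO1 and HMOX1, with the fewest reads, have the widest intervals.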

Other observations

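Some genes of the 9 lists outside the naming rule are described here. They were chosen after their values were seen, so their directions are no further evidence of a split. BACH1, a repressor that competes with NRF2 for the same elements and restrains HMOX1, rose from 1862 ± 46.0 normalized counts in DMSO to 2778 ± 164 at 0.5 µM and 2879 ± 82.3 at 1.5 µM (SD, n = 3). GSS, which carries out the second step of glutathione synthesis, rose with GCLC, from 5444 ± 14.9 to 9645 ± 343 and 10024 ± 115. CBS, which starts the conversion of homocysteine to cysteine, fell from 21148 ± 353 to 12234 ± 373 and 10299 ± 157, and further between the doses (log2 fold change -0.25 ± 0.031, SE, limma adjusted p = 0.00102). Leaving out the 3 libraries with H19 takes away the replication at 1.5 µM, and the dose difference of CBS was then -0.25. CAT, catalase, rose from 1036 ± 22.9 to 2050 ± 133 and 2197 ± 0.682 normalized counts, and TXNRD3, another thioredoxin reductase, from 1178 ± 42.7 to 2329 ± 20.6 and 2830 ± 80.4. PRDX4, the peroxiredoxin of the endoplasmic reticulum, fell from 6140 ± 103 to 3560 ± 185 and 3344 ± 92.6. Each of these passed the test at both doses, beside 70% of all genes tested at 0.5 µM and 73.1% at 1.5 µM. Their choice by value made this likely.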
